A study of Mus musculus with 12 samples.

Results

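A set of 10 Serpinb genes of the mouse epidermis was followed in ear skin after injection of IL-17A, IL-36γ or both cytokines. The genes are Serpinb1a, Serpinb2, Serpinb3a, Serpinb3b, Serpinb3c, Serpinb3d, Serpinb5, Serpinb6c, Serpinb8 and Serpinb12. They were picked by symbol and make up 10 of the 50684 genes in the count table. Low counts kept Serpinb3d out of the test, so that 9 of the 10 genes were among the 19408 genes tested. The other 18 clade B serpins of the mouse served as the nearest comparison, and 12 of them were tested.

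Serpins are protease inhibitors that act as suicide substrates. The target protease cleaves an exposed loop, the serpin folds around the cut, and the protease is trapped in a dead complex. Clade B serpins lack a classical secretion signal and mostly stay inside the cell, where they protect it from its own proteases and from those of neighbouring or invading cells. Several of them are typical of stratified epithelia, and the human relatives of the Serpinb3 genes, known as squamous cell carcinoma antigens, are abundant in psoriatic epidermis.

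RNA of the ears of 12 C57BL/6 mice was sequenced, 3 mice a group, after PBS, IL-17A alone, IL-36γ alone or the combination IL-17A + IL-36γ. Females of 8 weeks were used, each group held 5 of them, and 3 were drawn at random for sequencing. Into the ear pinna 1 µg of each cytokine was injected intradermally, dissolved in 5 µl of PBS, PBS alone being the control. Treatment ran over 4 days in a row, after which the tissue was taken. The model thus shows a short response to injected protein in whole ear tissue, and in such bulk samples fewer cells of a type and less RNA per cell cannot be told apart.

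The totals of counts ranged from 25293468 to 34759293 per library. All 7 epidermal keratinocyte markers (such as Krt14 and Krt1) passed the filter, and their summed level was 14557 to 20649 CPM (counts scaled to a common library size with TMM factors) after PBS and 31507 to 37763 CPM after both cytokines. One control library stood apart. PBS replicate 1 had a summed level of 10 skeletal muscle markers of 445 CPM against 3064 and 3511 CPM in the other PBS libraries, and the combination had 271 to 1372 CPM. The summed level of the epidermal markers was highest of the PBS group in this library, so that its content of epidermis relative to muscle differed. Calls given here that differ without PBS replicate 1 are therefore also given without it. In the IL-17A group replicate 1 stood apart as well, with summed stress keratins of 2236 CPM against 635 and 578 CPM. Its neutrophil markers summed to 85 CPM against 34.2 and 45.7 CPM.

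Of the genes, 8 sit together on chromosome 1 in the order Serpinb5, Serpinb12, Serpinb3a, Serpinb3d, Serpinb3b, Serpinb3c, Serpinb2 and Serpinb8, with other clade B serpins between them, all within chr1:106861173-107610484 of GRCm38, the assembly of mm10. Serpinb1a lies at chr13:32842092-32851185 and Serpinb6c at chr13:33879816-33905708, both on the minus strand. The Serpinb3 genes are close copies of each other on the minus strand. In the GENCODE annotation Serpinb3a spans chr1:107045587-107052303, Serpinb3d chr1:107078167-107083506, Serpinb3b chr1:107153940-107278361 and Serpinb3c chr1:107271201-107278371. The coding sequence of Serpinb3a was identical to that of Serpinb3b at 93.1% of aligned bases, to Serpinb3c at 91.5% and to Serpinb3d at 89.2%, whereas its identity with the other members ran from 58.1% with Serpinb6c to 63.1% with Serpinb12.

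The copies resemble each other before the transcription start as well, and these sequences are shown because Serpinb3a, Serpinb3b and Serpinb3c differed so much in level. Each line is the 250 bases before the start in RefSeq (GRCm38.p6), minus strand, read 5′ to 3′, at chr1:107052304-107052553 for Serpinb3a, chr1:107161115-107161364 for Serpinb3b, chr1:107278372-107278621 for Serpinb3c and chr1:107083481-107083730 for Serpinb3d. Capitals mark the aligned bases at which the first 3 genes are not all alike, and Serpinb3d was left in lower case.
Serpinb3a: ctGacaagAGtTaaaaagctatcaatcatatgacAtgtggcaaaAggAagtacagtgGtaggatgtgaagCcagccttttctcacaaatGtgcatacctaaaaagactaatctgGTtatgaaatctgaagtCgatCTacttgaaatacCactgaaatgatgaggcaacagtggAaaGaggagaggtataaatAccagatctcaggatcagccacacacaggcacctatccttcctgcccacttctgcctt
Serpinb3b: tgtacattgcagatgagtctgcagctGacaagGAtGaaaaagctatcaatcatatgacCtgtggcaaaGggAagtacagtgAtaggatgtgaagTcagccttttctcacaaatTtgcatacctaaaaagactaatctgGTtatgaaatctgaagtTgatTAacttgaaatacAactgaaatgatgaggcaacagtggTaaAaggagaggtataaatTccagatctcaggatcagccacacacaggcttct
Serpinb3c: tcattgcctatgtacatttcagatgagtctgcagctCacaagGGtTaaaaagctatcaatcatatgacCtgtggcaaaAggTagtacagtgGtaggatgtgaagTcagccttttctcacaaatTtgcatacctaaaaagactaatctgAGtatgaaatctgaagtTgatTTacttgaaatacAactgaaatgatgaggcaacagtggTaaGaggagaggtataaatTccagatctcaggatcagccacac
Serpinb3d: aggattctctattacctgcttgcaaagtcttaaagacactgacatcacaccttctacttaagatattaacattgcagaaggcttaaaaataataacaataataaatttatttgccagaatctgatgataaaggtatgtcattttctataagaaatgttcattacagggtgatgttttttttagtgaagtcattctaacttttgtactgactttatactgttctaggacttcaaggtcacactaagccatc

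Of the 216 columns of the alignment that hold a base of all 3 genes, 197 (91.2%) were identical and 19 differed. Pairwise identity was 92.5% for Serpinb3a and Serpinb3b, 94.0% for Serpinb3a and Serpinb3c and 95.4% for Serpinb3b and Serpinb3c. Against Serpinb3d it was 64.8% to 67.1%. The letters TATAAA, searched on both strands, began at -65 in Serpinb3a, -41 in Serpinb3b and -31 in Serpinb3c. In Serpinb3d only their reverse complement, TTTATA, was present in the printed direction, beginning at -40. On either strand the letters were found in 12.4% of 32851 RefSeq windows of the same length. The letters TGANTCA of the AP-1 motif were absent from these 4 windows and present in 6.75% of all windows. The letters TTGCNNAA of the C/EBP motif were present in Serpinb3d alone among them, at -179, and in 9.56% of all windows. The NF-κB motif was absent from the 4 windows and present in 2.7% of all. Each is a match of letters only.

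Such similarity touches the counts. Of the windows of 76 bases (1 read length) along the transcripts, 7.97% of Serpinb3a were identical to another gene, nearly all to the pseudogene Gm8080. The share was 2.09% for Serpinb3b, 2.46% for Serpinb3c and 0.701% for Serpinb3d. On the minus strand the GENCODE gene Serpinb3b begins at chr1:107278361, near the start of Serpinb3c at chr1:107278371. It thus spans the Serpinb3c locus and shares 35 exon bases with it. The Serpinb3b sequence printed above lies before the RefSeq start instead. For Serpinb2 the share was 8.91%, all with Serpinb10, with which it shares 291 exon bases on the same strand. How reads that fit several places were counted is not given in the sources used here, so values of these genes carry this uncertainty. No window of Serpinb5, Serpinb8 or Serpinb12 was shared.

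Levels per kilobase of exon show which serpins dominated the tissue. Serpinb5 was the most abundant in every group, with 233 ± 38.6 CPM per kb (SD, n = 3) after PBS. After PBS it was followed by Serpinb2 (81.9 ± 5.23) and Serpinb3b (81.4 ± 3.26), a pair whose ranges overlapped, then by Serpinb12 (45.5 ± 13.6), Serpinb8 (25.6 ± 2.27) and Serpinb1a (18.6 ± 0.751). Serpinb6c (5.24 ± 1.03) and Serpinb3a (3.41 ± 1.84) overlapped at the low end, and Serpinb3c (0.0281 ± 0.0256) and Serpinb3d (0.0154 ± 0.0133) were close to 0. After IL-17A + IL-36γ the order had changed. Serpinb5 (234 ± 8.33) was followed by Serpinb3b (182 ± 13) and by Serpinb3a (150 ± 39.3 CPM per kb), which had moved from rank 8 to rank 3. The ranges of Serpinb3a and Serpinb3b overlapped there, as did those of Serpinb3a and Serpinb2 (120 ± 1).

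**Figure D1:**
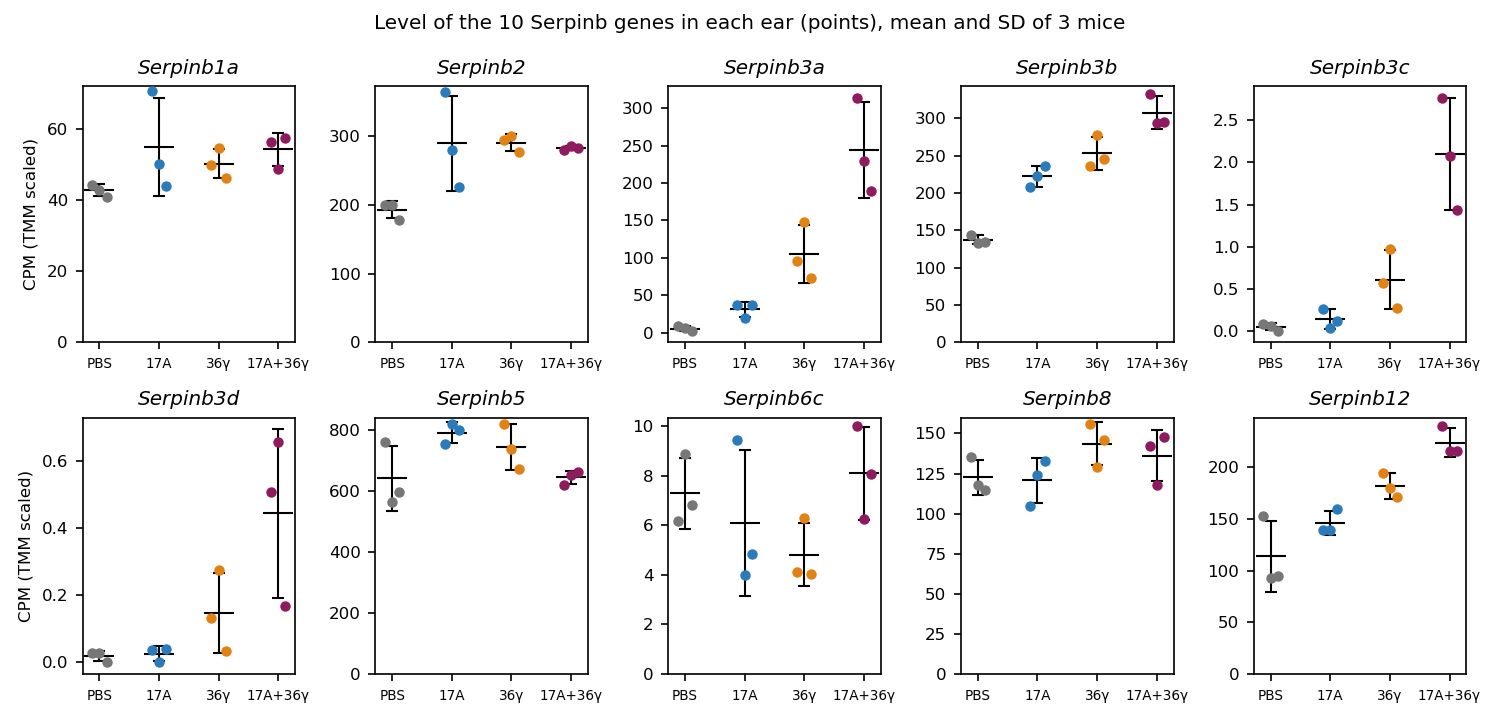
CPM (TMM scaled, linear axis) of the 10 Serpinb genes in the 12 ears, by group, with 17A standing for IL-17A and 36γ for IL-36γ. Points are single mice, the dash is the mean and the bar the SD of 3 mice. Serpinb3a goes from 5.56 CPM after PBS to 244 CPM after both cytokines, while the PBS and combination groups overlap in Serpinb5 and Serpinb8.

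Serpinb3a had the largest log2 values against PBS in all 3 treated groups. Human relatives of the Serpinb3 genes inhibit cysteine cathepsins and chymotrypsin-like serine proteases. Serpinb3a (ENSMUSG00000044594) had 8.53, 5.61 and 2.55 CPM in the PBS libraries, 36.4, 20 and 37.2 CPM after IL-17A, 95.8, 148 and 72.4 CPM after IL-36γ and 314, 229 and 189 CPM after the combination. None of the 4 groups overlapped another, and each step up in the order PBS, IL-17A, IL-36γ and combination was seen in all 3 mice.

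In the quasi-likelihood test of edgeR with Benjamini-Hochberg adjustment, Serpinb3a rose by a log2 value of 2.48 in the IL-17A ears (SE 0.404, adjusted p = 0.0126), of 4.24 in the IL-36γ ears (SE 0.422, adjusted p = 6.69e-05) and of 5.45 with the combination (SE 0.442, adjusted p = 1.02e-05). These are changes of 5.57, 18.9 and 43.7 times. Genes count as raised or lowered where the adjusted p was below 0.05 and the absolute log2 value above 1. For IL-17A this call of Serpinb3a hung on single libraries. Leaving out PBS replicate 3, the lowest control, its log2 value was 2.13 with an adjusted p of 0.0642, without IL-17A replicate 1 it was 2.32 with an adjusted p of 0.0541, and in a fit of the PBS and IL-17A libraries alone 2.45 with an adjusted p of 0.0749.

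Serpinb3b (ENSMUSG00000073602) started high and rose less. Its level was 144, 133 and 135 CPM in the PBS libraries, 208, 223 and 236 CPM with IL-17A, 236, 278 and 245 CPM after IL-36γ and 333, 294 and 295 CPM after both. Libraries wholly above those of PBS were seen in 19.6% (IL-17A), 22.4% (IL-36γ) and 27% (combination) of all tested genes. The combination lay wholly above IL-17A in 23% of them and above IL-36γ in 9.33%. For Serpinb3b all treated libraries lay above all PBS libraries, and the combination lay above the single cytokines. Relative to PBS its log2 values were 0.70 (SE 0.0831, adjusted p = 0.00408), 0.88 (SE 0.0833, adjusted p = 5.56e-05) and 1.16 (SE 0.0837, adjusted p = 5.62e-06) in the test of edgeR. Only the last passed the fold threshold, and its 95% confidence interval of 0.98 to 1.35 reached below it.

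Serpinb3c (ENSMUSG00000073601) was almost silent in the controls. Its raw counts were 3, 2 and 0 after PBS, 7, 1 and 3 after IL-17A, 17, 32 and 8 after IL-36γ and 71, 57 and 43 after both. The IL-36γ and combination libraries lay above all PBS libraries, as in 22.4% and 27% of all tested genes, and those of IL-17A did not. As a ratio of summed counts at equal depth, the combination was 43.1 times PBS, with an interval of 18.1 to 134 that covers counting error only, and IL-36γ was 13 times PBS (5.24 to 41.4). Serpinb3c was called raised after IL-36γ (adjusted p = 0.00515) and after the combination (adjusted p = 9.53e-05) by edgeR. It reached 10 counts only in IL-36γ and combination libraries, so it passed the filter through groups in which it was high. With no filter on low counts both calls remained. After IL-17A the ratio was 2.82 (0.902 to 10.3, adjusted p = 0.36).

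Serpinb3d (ENSMUSG00000058017) had 1, 1 and 0 counts after PBS, 1, 0 and 1 after IL-17A, 4, 9 and 1 after IL-36γ and 13, 18 and 5 after both. The combination lay above all other groups but IL-36γ, whose highest library lay within its range. Of all tested genes 27% lay above PBS in this way and 23% above IL-17A. The ratio of the combination to PBS was 22.7 (5.84 to 194, counting error only) and that of IL-36γ to PBS 7.95 (1.83 to 72.1). Too few libraries held enough counts for a test of Serpinb3d in the fit of all 12.

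The share of Serpinb3a among the Serpinb3 transcripts differed between the groups without overlap. Within a library this share does not depend on the scaling between libraries. Serpinb3a made up 5.6, 4.03 and 1.85% of the counts of the 4 genes in the PBS libraries, 14.8, 8.25 and 13.6% after IL-17A, 28.9, 34.7 and 22.8% after IL-36γ and 48.3, 43.5 and 39% after the combination. The exact binomial 95% interval, for counting error only, was 5.01 to 6.24% in PBS replicate 1 and 33.9 to 35.5% in IL-36γ replicate 2, narrower than the spread between the mice of either group. The group means were 3.83 ± 1.88%, 12.2 ± 3.49%, 28.8 ± 5.95% and 43.6 ± 4.65% (SD, n = 3), and no group overlapped another. In an exact two-sided permutation test each of the 5 comparisons had p = 0.1, the smallest value that 3 against 3 mice can give. Serpinb3b made up 94.3 to 98.1% of the counts after PBS and 51.2 to 60.7% after both, while its own level rose. The summed level of the 4 genes was 143 ± 8.14 CPM in the PBS group, 254 ± 17.3 with IL-17A, 359 ± 60.2 with IL-36γ and 555 ± 85.9 CPM with both.

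**Figure D2:**
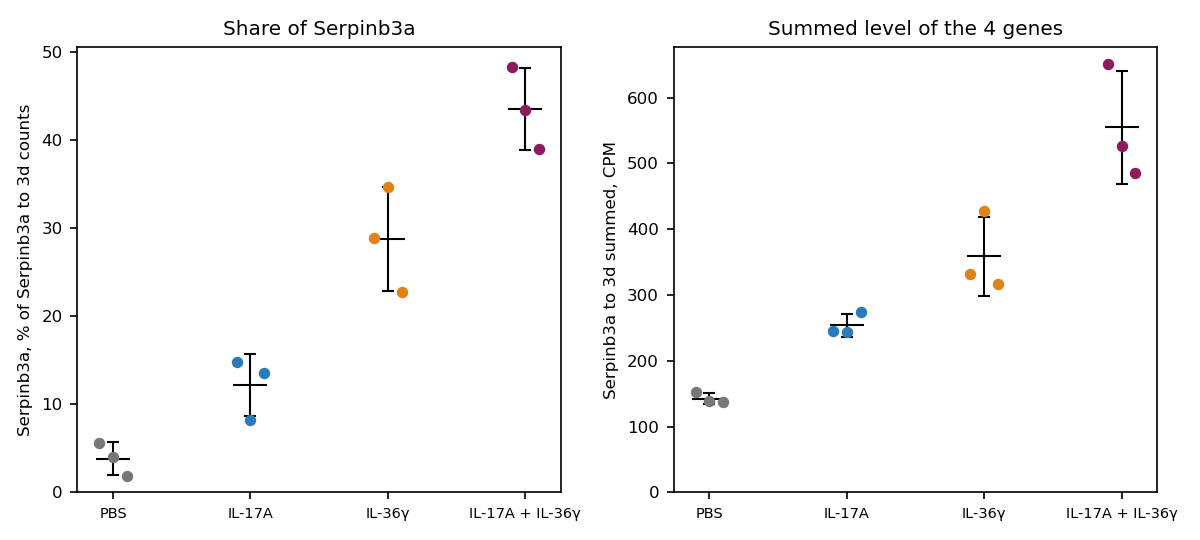
Left, Serpinb3a as a percentage of the counts of Serpinb3a, Serpinb3b, Serpinb3c and Serpinb3d in each library. Right, the summed CPM of these genes. Points are single mice, the dash is the mean and the bar the SD of 3 mice. The share goes from 3.83% to 43.6% and no group overlaps another.

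Serpinb12, an inhibitor of trypsin-like proteases in stratified epithelia, followed the same order of groups on a smaller scale. In the PBS libraries it had 153, 93.1 and 95.1 CPM, with 139, 139.8 and 159.6 CPM after IL-17A, 195, 179.9 and 171 CPM after IL-36γ and 240.3, 216 and 216 CPM after the combination. IL-36γ and the combination lay above PBS in all mice, as in 22.4% and 27% of all tested genes. For Serpinb12 PBS replicate 1 overlapped the IL-17A group. Its log2 values were 0.36 (adjusted p = 0.143), 0.68 (adjusted p = 0.00844) and 0.98 (SE 0.159, adjusted p = 0.000493) in the test of edgeR. The last was just under the fold threshold. Without PBS replicate 1, the highest control, Serpinb12 had 0.64 with IL-17A (adjusted p = 0.00148) and 0.96 with IL-36γ (adjusted p = 2.7e-05), both under the fold threshold. Its value with both cytokines was 1.25 with an adjusted p of 2.57e-06 without PBS replicate 1, and 1.02 with an adjusted p of 0.00131 without replicate 3 of the combination, and was called in both cases.

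Serpinb2, or plasminogen activator inhibitor 2, blocks urokinase and tissue plasminogen activator and is induced in stressed keratinocytes and macrophages. It had 200.1, 199 and 178 CPM in the PBS libraries, 363, 279 and 226 CPM with IL-17A, 294, 300.2 and 276 CPM after IL-36γ and 279.6, 285 and 282 CPM after both. Every treated library lay above every PBS library, as in 19.6% (IL-17A), 22.4% (IL-36γ) and 27% (combination) of all tested genes. The 3 treated groups of Serpinb2 overlapped. The log2 values of 0.59, 0.59 and 0.55 had adjusted p-values of 0.0245, 0.00664 and 0.00518 in the test of edgeR, and none passed the fold threshold. Among the IL-17A libraries replicate 1 was highest, and over the alternative fits the IL-17A value ran from 0.36 to 0.74.

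The remaining 4 genes passed the test in no comparison. Serpinb5, or maspin, a serpin of epithelial cells without inhibitory action, had 761, 564 and 598 CPM after PBS and 619.6, 651 and 662 CPM after both, with a log2 difference of 0.01 (95% interval -0.24 to 0.25). Its log2 values were 0.30 after IL-17A and 0.21 after IL-36γ, with adjusted p-values of 0.0913 and 0.166 by edgeR. Leaving out PBS replicate 1, the highest control, they were 0.45 (adjusted p = 0.00803) and 0.36 (adjusted p = 0.0117), under the fold threshold. Serpinb8, an inhibitor of furin, had log2 values of -0.02, 0.23 and 0.15, and the interval of the last was -0.10 to 0.40.

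Serpinb1a, an inhibitor of neutrophil elastase and related proteases, had 44.3, 42.8 and 40.9 CPM after PBS and 56.3, 48.8 and 57.4 CPM after both. These groups did not overlap, an upward separation that 27% of all genes showed, but the log2 value of 0.34 had an adjusted p of 0.0675 by edgeR. It was 0.36 after IL-17A and 0.23 after IL-36γ. The IL-17A libraries had 70.5, 50.1 and 44 CPM, highest in replicate 1. Over the alternative fits the IL-17A value ran from 0.11 to 0.5. Serpinb6c, a low-level gene of the Serpinb6 group, had 6.15, 8.89 and 6.82 CPM after PBS and 10, 6.25 and 8.06 CPM after both, and its log2 values were -0.26, -0.60 and 0.15 with overlapping groups.

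In counts, 1 of the 9 tested genes was raised after IL-17A, where 1.07% of all tested genes were raised, 2 after IL-36γ against 5.11% of all genes and 3 after the combination against 7.35%. None of the 9 was lowered, where 1.03%, 1.98% and 6.06% of all genes were. The median log2 value of the 9 genes was 0.36 with IL-17A, 0.59 with IL-36γ and 0.55 with both cytokines, beside 0.04, -0.02 and -0.03 over all genes tested. By the adjusted p alone, 3, 5 and 5 of the genes differed from PBS, all upward. The shares of all genes given here are for the calls of edgeR in all 12 libraries. Counts by other criteria, by DESeq2 or without a library have no such share beside them, so they were not compared with all genes. The 3 comparisons share the PBS mice. Serpinb3c counts as raised after IL-36γ and after the combination, and it passed the filter through libraries of those groups. Without PBS replicate 1 the combination called 5 genes, Serpinb12 and Serpinb3d being added to Serpinb3a, Serpinb3b and Serpinb3c. Serpinb3d passed the filter there because fewer libraries with enough counts then sufficed. It did so whichever library was left out, except replicates 1 and 2 of the combination, and was then called raised by the combination each time, as it was with no filter and by DESeq2.

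**Figure D3:**
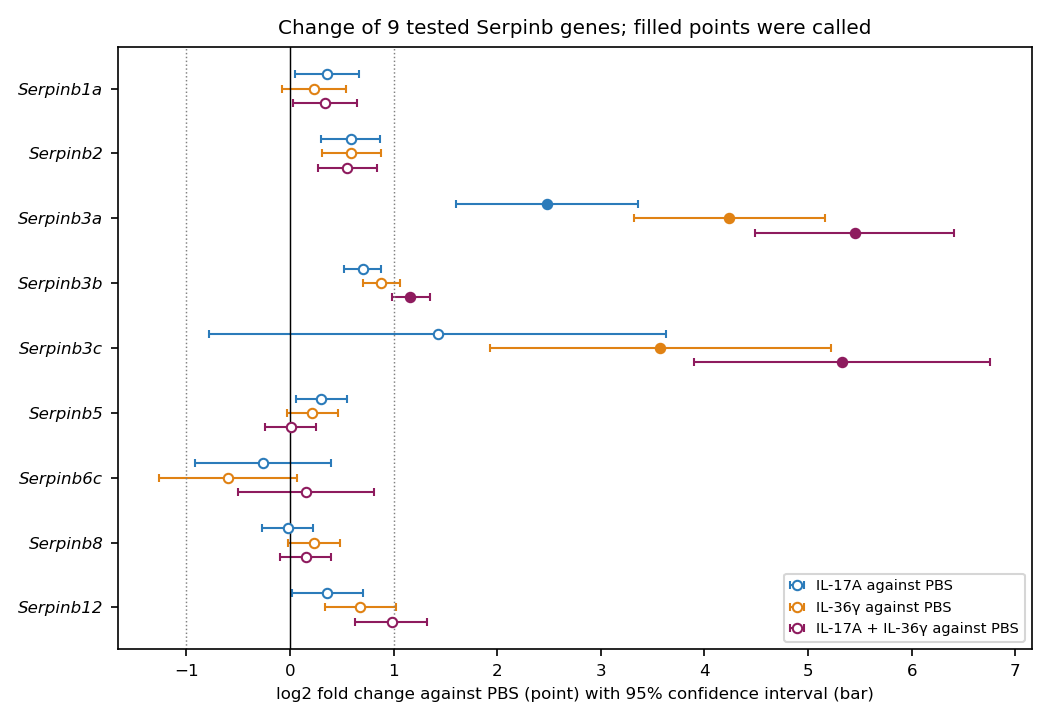
log2 fold change against PBS of the 9 tested Serpinb genes after IL-17A, IL-36γ and both (edgeR, 1 fit of 12 libraries). Points are estimates, bars are 95% confidence intervals, filled points passed both thresholds, and the dotted lines mark log2 values of -1 and 1. Serpinb3a and Serpinb3c lie far to the right, and Serpinb3b passes after both cytokines with 1.16.

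What IL-36γ added to IL-17A was tested by setting the combination against IL-17A. Serpinb3a was higher by a log2 value of 2.97 (SE 0.387, adjusted p = 0.000385 by edgeR) and Serpinb3c by 3.90, a ratio of 15.3 in counts (8.34 to 31.2, counting error only, adjusted p = 0.000732). These 2 of 9 genes were called raised, where 4.46% of all genes were, and none was lowered, where 4.49% of all genes were. Serpinb3b (log2 0.47, adjusted p = 0.00174) and Serpinb12 (log2 0.62, adjusted p = 0.0113) passed the adjusted p by edgeR but not the fold threshold. Serpinb5 was lower in all 3 combination libraries than in any IL-17A library, at 753, 821 and 800 CPM after IL-17A. Of all tested genes 25.4% were lower in this way. The log2 value of Serpinb5, -0.30, had an adjusted p of 0.0608 by edgeR, or of 0.015 without PBS replicate 1. Serpinb3d, which then passed the filter through combination libraries, was called as well when that library was left out, making 3 genes. The median of the 9 genes was 0.42 and that of all genes 0. Serpinb3c had passed the filter through combination and IL-36γ libraries.

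What IL-17A added to IL-36γ passed the test for no gene of the set. Against IL-36γ the combination had log2 values of 1.21 for Serpinb3a (95% interval 0.42 to 2, adjusted p = 0.177 by edgeR), 1.76 for Serpinb3c (0.78 to 2.74, adjusted p = 0.128) and 0.28 for Serpinb3b (0.10 to 0.46, adjusted p = 0.175). In these 3 genes and in Serpinb12 (0.30, adjusted p = 0.39) all combination libraries lay above all IL-36γ libraries, a separation that 9.33% of all tested genes showed. In Serpinb5 they all lay below, as in 11.3% of all genes. No member was called in either direction by edgeR, where 0% of all genes were raised and 0.0103% lowered. By edgeR 4 members had an unadjusted p below 0.05, all of them higher in the combination, and the matching share of all genes was not computed. By the likelihood ratio test of DESeq2 none passed both thresholds either, and Serpinb3b (0.29, adjusted p = 0.0221) passed the first. Without a filter on low counts Serpinb3a (adjusted p = 0.044) and Serpinb3c (adjusted p = 0.0393) were called by edgeR.

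The interaction subtracts the log2 change by IL-17A alone from its log2 change on top of IL-36γ, so that 0 stands for fold changes that multiply. It was -1.27 for Serpinb3a (95% interval -2.43 to -0.11, adjusted p = 0.189 by edgeR), -0.41 for Serpinb3b (adjusted p = 0.0846), -0.63 for Serpinb2 (adjusted p = 0.0925) and -0.51 for Serpinb5 (adjusted p = 0.103). Serpinb6c had a positive value of 1.01 (adjusted p = 0.194). Serpinb3c had 0.33 with a wide interval of -2.99 to 3.66. None of the 9 genes was called by edgeR, where 0.129% of all genes had a positive and 0.423% a negative call. By edgeR 5 of the 9 had an unadjusted p below 0.05, 4 of them negative, and the matching share of all genes was not computed. The likelihood ratio test of DESeq2 called Serpinb2, Serpinb3b and Serpinb5, all negative, with adjusted p-values of 0.0305, 0.0138 and 0.0314. Without PBS replicate 1 edgeR called Serpinb3b (-0.45, adjusted p = 0.0461) and Serpinb5 (-0.65, adjusted p = 0.0199). The median of the 9 genes was -0.25 and that of all genes -0.07.

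**Figure D4:**
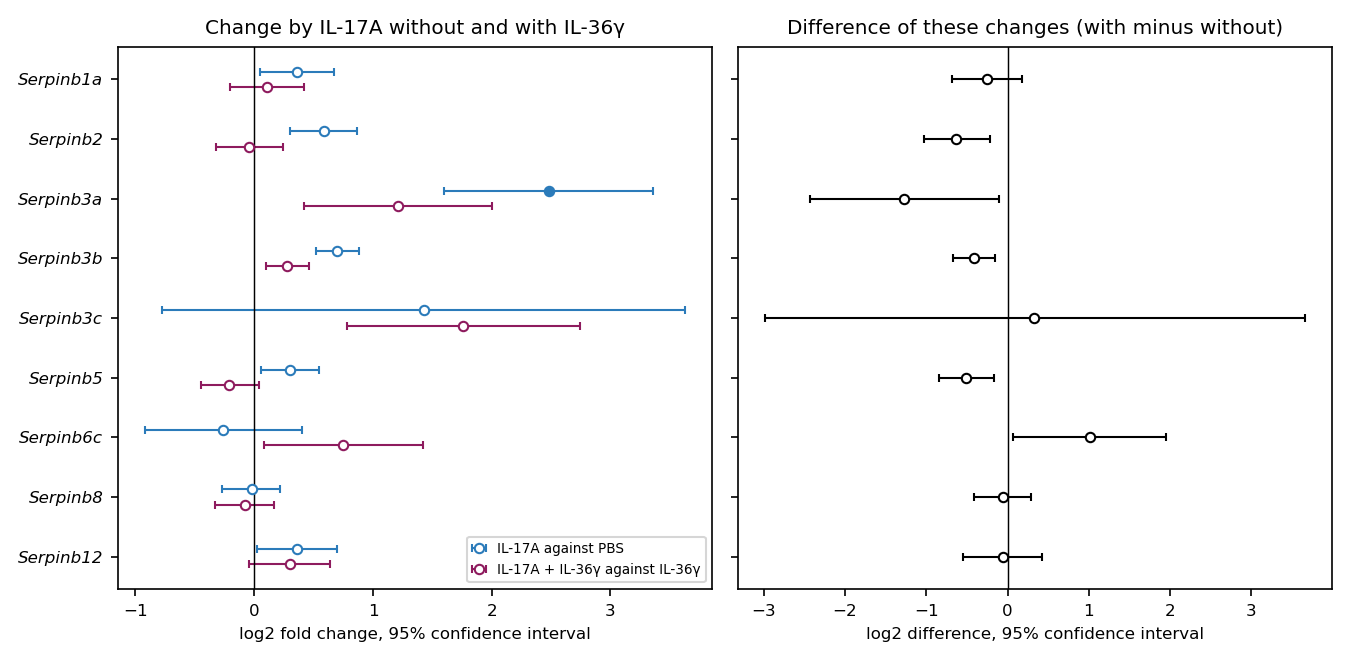
Left, log2 change by IL-17A without IL-36γ (against PBS) and with it (combination against IL-36γ) for the 9 tested Serpinb genes. Right, the difference of these changes, with minus without. Points are edgeR estimates, bars are 95% confidence intervals and filled points were called. Serpinb3a goes from 2.48 to 1.21, and no difference on the right was called.

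The other clade B serpins moved in both directions. After the combination 2 of the 12 tested genes were raised and 3 lowered, with a median log2 value of -0.24. Serpinb11, the next gene beyond the Serpinb3 genes, had 24.9, 14.5 and 16.2 CPM after PBS and 51, 39.4 and 37.5 CPM after both (log2 1.20, adjusted p = 0.000509 by edgeR). Serpinb1b rose by 2.21 from counts of 11, 2 and 2 to 19, 13 and 24 (adjusted p = 0.00377). Serpinb1c (-1.99), Serpinb9b (-1.44) and Serpinb6e (-3.11) were lowered, with PBS levels of at most 6.31 CPM in Serpinb1c, 1.13 in Serpinb9b and 2.8 in Serpinb6e, and counts of Serpinb6e of 16, 99 and 29 after PBS and 3, 2 and 8 after both. Serpinb13, an inhibitor of cathepsins, Serpinb7 and Serpinb6d had log2 values of -0.60, -0.73 and -0.93 with adjusted p-values of 0.00596, 0.00429 and 0.036, under the fold threshold. Serpinb6d overlapped between the groups and had -0.38 (adjusted p = 0.194) without PBS replicate 1. Also under the fold threshold were Serpinb6b (0.79, adjusted p = 0.00495) and Serpinb10 (0.54, adjusted p = 0.00444). Each was higher than PBS in all mice, as were 27% of all tested genes. Serpinb6a (0.20) and Serpinb9 (0.11) had adjusted p-values of 0.105 and 0.576. After IL-17A none of the 12 was called, with log2 values of -0.67 to 0.52, and after IL-36γ 2 were lowered, Serpinb1c (-1.44) and Serpinb9b (-1.70). When PBS replicate 1 was left out, IL-36γ raised Serpinb11 (1.06) and Serpinb1b (2.35), and Serpinb1c (-0.96) was not called. Of the 6 genes not tested, all of the Serpinb9 group, 5 had no count and Serpinb9e had 3 counts in all.

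**Figure D5:**
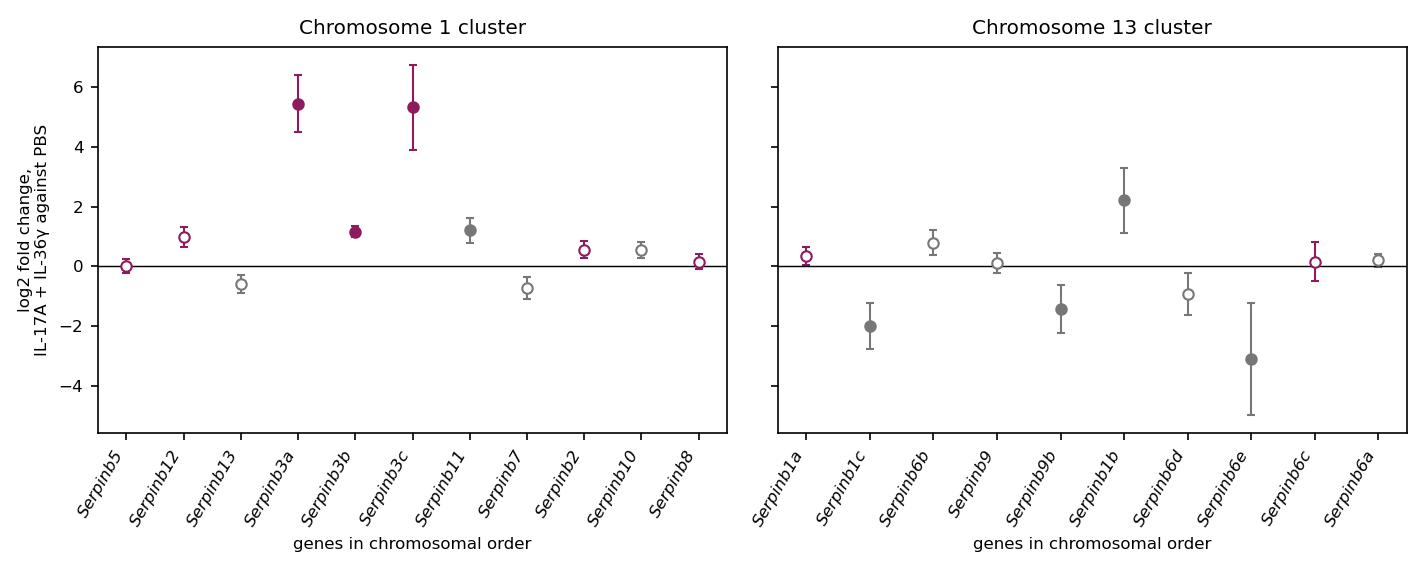
log2 fold change of the combination against PBS for the tested clade B serpins on chromosome 1 (left) and chromosome 13 (right), in chromosomal order. Purple points are the epidermal Serpinb genes and grey points the other clade B serpins, bars are 95% confidence intervals, and filled points were called. Serpinb3a (5.45) and Serpinb3c (5.33) stand highest, and Serpinb1c, Serpinb9b and Serpinb6e on chromosome 13 lie below 0.

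Proteases that such serpins can meet were followed as well. Of 10 cysteine cathepsins, which are lysosomal proteases, 2 were raised after IL-36γ and 2 after the combination, none after IL-17A and none lowered. In both cases they were Ctsc, which activates granule proteases (log2 1.48 after the combination, adjusted p = 1.29e-05 by edgeR), and Ctss (1.33, adjusted p = 0.000252), and the median of the 10 was 0.60. After the combination 5 of the 10 lay above PBS in all mice and 3 below, as 27% and 25.6% of all genes did. Among the lower ones Ctsf went from 52.5 to 27.3 CPM and Ctsk from 160.5 to 106 CPM (means), under the fold threshold. Of 13 epidermal serine proteases, mostly kallikreins that shed the outer epidermis, 1 was raised by IL-17A, 5 by IL-36γ and 7 by the combination, with medians of 0.26, 0.73 and 1.17 and none lowered. The combination raised 9, with Klk7 and Klk10 added, without PBS replicate 1. The largest values after the combination were 5.48 for Klk13, 3.91 for Klk14 and 3.58 for both Klk6 and Klk9. Klk13 had log2 values of 1.97 and 4.31 after IL-17A and IL-36γ. Furin, the target of Serpinb8, had 0.72 after the combination (adjusted p = 0.000654), under the fold threshold.

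Of 5 genes of plasminogen activation, the targets and partners of Serpinb2, Plaur, the urokinase receptor, was raised after the combination (log2 1.03, adjusted p = 0.00322 by edgeR) and none was lowered, with a median of 0.48. Plaur had 0.97 and was not called without PBS replicate 1. Of 4 neutrophil serine proteases, the targets of Serpinb1a, only Ctsg had enough counts to be tested, and it was lowered after the combination (-1.11, adjusted p = 0.0328) from 2.21 ± 1.23 to 1.03 ± 0.329 CPM (SD, n = 3). Ctsg had 3.63 CPM in PBS replicate 1, and without it the log2 value was -0.55 (adjusted p = 0.156), no longer called. Elane, the neutrophil elastase, had a single count in 2 of 12 libraries. Differences in Elane were not detectable at this depth.

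Epidermal markers also differed between the groups. The summed epidermal keratinocyte markers went from 14557 to 20649 CPM after PBS to 20905 to 23128 after IL-17A, 24795 to 33946 after IL-36γ and 31507 to 37763 after both. After the combination 2 of the 7 were raised, Krt1 (log2 4.21) and Krt14 (1.38), and the median of the 7 was 0.54. The rise of the sum was thus not uniform. Mean levels went from 392 to 7254 CPM in Krt1 and from 3987 to 10396 CPM in Krt14. Trp63 went from 327 to 307 CPM and Perp from 2502 to 2892 CPM. Of 5 terminal differentiation markers 4 were raised, led by Casp14 (3.01) and Flg (2.03), and the sum went from 519 to 1111 CPM to 2009 to 2172 CPM. Of 4 stress keratins 3 were raised, Krt6b (7.20), Krt16 (5.85) and Krt6a (4.27), joined by Krt17 (1.01) without PBS replicate 1, and the sum went from 325 to 526 CPM to 6261 to 10593 CPM. The part of these shifts in the values of the Serpinb genes was not tested.

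Immune markers rose too. All 7 neutrophil markers were raised after the combination, such as Mmp8 (log2 4.72) and Csf3r (4.24), and their sum went from 17.3 to 30.6 CPM to 121 to 237 CPM. Ly6g, the defining neutrophil marker, had no count in the PBS libraries and 22, 15 and 18 counts after both. Of 8 monocyte and macrophage markers 7 were raised, with a median of 1.72, led by Ly6c2 (4.88) and Itgam (2.59), and the sum went from 446 to 539 CPM to 1070 to 1237 CPM. None of 6 mast cell markers was called, or Fcer1a alone (1.1) without PBS replicate 1, with sums of 196 to 224 CPM after PBS and 197 to 206 CPM after both. Of 10 skeletal muscle markers 3 were lowered after the combination, with a median of -1.67, and all 10 without PBS replicate 1. The part of leukocytes and of muscle in the Serpinb values was not tested.

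The genes whose log2 CPM followed a member most closely over the 12 libraries were listed by Pearson's r as a description. The libraries form 4 treatment groups, so each r holds the differences between groups. For Serpinb3a these were Arpc1b (0.992), Nubp1 (0.992) and AI506816 (0.99), for Serpinb3b Defb6 (0.994), Arhgdib (0.985) and Gm37703 (0.977), for Serpinb3c Sema4d (0.99), Gm30074 (0.987) and Slc7a11 (0.983) and for Serpinb12 Rab38 (0.993), Spc24 (0.988) and Gpr160 (0.987). Serpinb2 was followed by Zfp385a (0.971), Fkbp1a (0.96) and Sugt1 (0.96), Serpinb5 by Tst (0.959), Actr10 (0.953) and Naxe (0.936), and Serpinb8 by Hal (0.955), Lrch1 (0.95) and Cln8 (0.95). Serpinb1a was followed by Tnfrsf26 (0.95), Snora62 (0.944) and Snord118 (0.928). The lowest values were those of Serpinb6c, with Gm17484 (0.852), C730034F03Rik (0.847) and Fbxl5 (0.826). Among the members themselves r was 0.97 for Serpinb3a and Serpinb3b, 0.94 for Serpinb3a and Serpinb3c and 0.94 for Serpinb3a and Serpinb12, and 0.15 for Serpinb3a and Serpinb5.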

How the data were processed

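The authors made stranded total RNA libraries depleted of ribosomal RNA, read in pairs of 76 cycles, aligned them to mm10 with STAR 2.5.2b and counted reads per Ensembl gene with featureCounts (Subread 1.5.1). The deposited table holds these raw counts, without normalization, 1 column per mouse. The strand setting and the annotation release are not given in the sources used here. The authors' tables of comparisons (DESeq2 1.30.0) hold fold changes and p-values, of which none was used. Their symbols served to match the members to Ensembl identifiers.

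Libraries were grouped by their labels. In R 4.3.3 with edgeR 4.0.16, genes were filtered by filterByExpr (minimum count 10), scaled by TMM and tested with the quasi-likelihood test in 1 fit of the 12 libraries. p-values were adjusted over all 19408 genes by Benjamini-Hochberg. Changes were called at an adjusted p below 0.05 and an absolute log2 value above 1, and interactions at an adjusted p below 0.05. SEs were taken from the estimate and its F statistic. CPM are TMM scaled, and values per kb used merged GENCODE vM21 exons. Intervals of shares and ratios cover counting error only. No replicate was a copy of another (chi-square per gene 7.09 to 64). Deviations from the group means of same-numbered mice had r from -0.2 to 0.35 (median 0.1, against -0.05 for other pairs), with 9 of 18 pairs above 0.1. Pairing was to be taken only where every pair was above 0.1, so the numbers were not used to pair mice. Alignments used MAFFT 7.526. The procedure was tested on simulated data.

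The members and the lists were chosen with earlier results of these data known. All members are named, with the other clade B serpins tested, in each further list at most 4 called genes with the largest change after the combination, and the 3 genes closest to each member by Pearson's r. Named outside this rule, with their values already seen, are Elane, Furin, Plat, Csf1r, Klk7, Klk10, Krt17 and Fcer1a. The same holds for Ctsz, Serpine2, Sfn, Lor, Cd68, Mrc1, Trp63, Perp, Ctsf and Ctsk. The alternatives were DESeq2 1.42.0, other scalings and filters, only the groups compared, no fold threshold, a replicate block and each library left out in turn. The leave-one-out values of the Serpinb3a share and the fits of the other lists without PBS replicate 1 were added after seeing the data.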

Additional observations from a re-analysis of the deposited data

Results flagged for a closer look

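None of the 9 tested Serpinb genes had an interaction past the threshold, and groups of 3 mice were too small for a formal test of outlying samples. Among the protease and marker genes 3 showed a change by IL-17A that differed with and without IL-36γ by the interaction test of edgeR. Plat, the tissue plasminogen activator, had a difference of -1.04 (adjusted p = 0.0487), with log2 values of 0.79 for IL-17A against PBS and -0.25 for the combination against IL-36γ. Adgre1, a macrophage marker, had a difference of -0.99 (adjusted p = 0.0429), with 0.74 and -0.25. Csf1r, the receptor of macrophage colony-stimulating factor, had a difference of -0.63 (adjusted p = 0.0459), with 0.48 and -0.15. Without PBS replicate 1 the differences were -1.04, -0.91 and -0.63, all called. Further genes of the lists were then called as well, all negative. Among the clade B serpins these were Serpinb13 (-0.89), Serpinb6a (-0.56) and Serpinb6d (-1.3). The others were Ctsz (-0.52), Serpine2 (-0.68), Sfn (-0.61), Lor (-1.27), Ccr2 (-0.99), Cd68 (-0.7) and Mrc1 (-0.82).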

How the results depend on the processing

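The numbers of Serpinb genes called, 1, 2, 3, 2 and 0 in the 5 comparisons, were the same with DESeq2-type size factors, with library size only and with the replicate block, which also left the interaction at 0. Scaling by library size only moved the median log2 value of all genes against PBS from 0.04 to -0.13 (IL-17A), from -0.02 to -0.16 (IL-36γ) and from -0.03 to -0.17 (combination). Of 12 libraries 8 correlated best with those of their own number, a hint from the data and not from the design. Without a fold threshold the numbers against PBS were 3, 5 and 5, and 4 for the combination against IL-17A. Requiring 10 counts in every library removed Serpinb3c and left 1 call for IL-36γ and 1 for the combination against IL-17A, and omitting the filter gave 2 for the combination against IL-36γ. In fits of the groups compared alone the number was 0 for IL-17A, for which the cause was not tested, and 1 for IL-36γ, where Serpinb3c did not pass the filter. DESeq2 called 1, 3, 4, 3 and 0 genes and 3 interactions. With a library left out the numbers were 0 to 1 for IL-17A, 2 to 3 for IL-36γ, 3 to 5 for the combination against PBS, 2 to 3 against IL-17A, 0 against IL-36γ and 0 to 2 for the interaction.

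Over all alternative fits Serpinb3a ranged from 2.13 to 2.93 after IL-17A and Serpinb12 from 0.84 to 1.25 after the combination. The interactions of Serpinb3b and Serpinb5 ranged from -0.48 to -0.24 and from -0.65 to -0.33. Values near 0 changed sign, none of them called. With library size only, Serpinb5 after the combination was -0.13, Serpinb1a in the combination against IL-17A 0.02 and the interactions of Serpinb8 and Serpinb12 0.12 and 0.11. Serpinb9 after the combination was -0.01 without PBS replicate 1. Serpinb5 was -0.02 without a filter and -0.01 with 10 counts in every library. With a library left out the ranges were -0.07 to 0.15 for Serpinb5 and -0.02 to 0.33 for Serpinb6c after the combination, -0.1 to 0.05 for Serpinb8 after IL-17A, -0.15 to 0.22 for Serpinb1a and -0.19 to 0.18 for Serpinb2 against IL-17A, and -0.15 to 0.02 for Serpinb8 against IL-36γ. For the interaction they were -0.14 to 0.08 (Serpinb8), -0.39 to 0.01 (Serpinb1a), -0.34 to 0.08 (Serpinb12) and -0.31 to 1.23 (Serpinb3c). The share of Serpinb3a ranged from 2.94 to 4.81% after PBS and from 41.3 to 45.9% after both. Depth limited Serpinb3c and Serpinb3d, with at most 3 counts in any PBS library.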
